A study of Mus musculus with 6 samples.

Results

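Carriers of solute carrier family 25 (SLC25) were compared between brown adipocytes differentiated in culture from WT and from Ucp1-KO mice. The group held every gene named Slc25a followed by a number in the deposited RefSeq annotation, except the adenine nucleotide translocases Slc25a4, Slc25a5 and Slc25a31 and the uncoupling protein relatives Slc25a14, Slc25a27 and Slc25a30. This gave 41 of 22466 genes with a RefSeq row, listed with 54 transcripts, and each gene was represented by its most abundant transcript. Apart from this choice of transcript the rule used names only. The members were, however, chosen with earlier results of these data known.

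Carriers of this family shuttle metabolites, nucleotides, cofactors and ions across the inner membrane of mitochondria, and thereby connect the pathways of the cytosol with those of the matrix. In brown adipocytes they pass acylcarnitines and branched-chain amino acids inward as fuel, export citrate for the synthesis of fatty acids and supply phosphate for ATP synthase. UCP1, the protein ablated in these cells, belongs to the same family. A few members work elsewhere, among them SLC25A17 in the peroxisomal membrane and SLC25A46 in the outer mitochondrial membrane.

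The cells were grown from the stromal-vascular fraction of interscapular brown fat of young male mice of strain 129SvEvS1, and were differentiated in vitro with a mixture that included insulin, T3 and rosiglitazone. One group was wildtype (WT replicates 10, 11 and 12), and the other carried the whole-body ablation UCP1(-/-) (Ucp1-KO replicates 13, 14 and 15). Both received the same media, and whether animals were pooled for a culture is not given in the sources used here. Total RNA was sequenced as single reads and deposited as RPKM, which scales reads to the length of the transcript and to all mapped reads, with totals between 14989604 and 17727653 reads per culture.

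Ucp1 abundance lay between 981 and 1775 RPKM in WT cells (median 1157) and between 307 and 409 RPKM in Ucp1-KO cells (median 398), with a Ucp1-KO mean at 28.4% of the WT mean, so that the targeted gene matched the labels although its transcript was still detected. The paper attributes the remaining RNA to a non-functional transcript that lacks exons, and its Western blot detected no UCP1 protein in Ucp1-KO cells. The 6 brown adipocyte markers, Ucp1 included, were all detected in every culture. They summed to 30557 to 32679 RPKM for WT and 30042 to 33650 RPKM for Ucp1-KO cells, most of it from Fabp4, a fatty acid binding protein also of white adipocytes (26399 to 29312 RPKM). Markers of other cells varied between cultures. Of the 5 stromal markers tested 0 had a log2 fold change above and 5 below 0 (median -0.33). Genotypes were fully separated for 1 of the 5, Pdgfra (against 11.2% of all transcripts). Of the endothelial markers 0 were above and 3 below 0, and of the macrophage markers 4 were above and 0 below 0. In limma none of these had an unadjusted p under 0.05 (against 5.54% of all transcripts). Of the 5 skeletal muscle markers 2 were tested, both above 0 (median 0.59). Tnnt3 had an unadjusted p of 0.0388 in limma (log2 fold change 0.88, adjusted p = 0.868), with overlapping genotypes. It had 0.118, 0 and 0.113 RPKM in the WT and 1.99, 0.1165 and 1.34 RPKM in the Ucp1-KO cultures. Tnnt3 thus reached the mean of 0.5 RPKM needed for the test only through Ucp1-KO replicates 13 and 15, and no conclusion is drawn from its p. The sum of 6 preadipocyte and stromal markers ran from 475 to 861 RPKM in WT cells, with the highest value in replicate 11, and from 371 to 646 RPKM in Ucp1-KO cells, with the lowest value in replicate 15. The 4 macrophage markers found summed to between 16.1 and 44.1 RPKM for WT and between 11.4 and 145 RPKM for Ucp1-KO cells, with the highest value in replicate 14. The 4 endothelial markers summed to between 2.30 and 28.0 RPKM for WT and between 5.22 and 12.8 RPKM for Ucp1-KO cells, and the 5 skeletal muscle markers to at most 6.12 and 12.1 RPKM. Fewer cells of a type and less RNA per cell cannot be told apart in such cultures.

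Summed over all 41 carriers, abundance was almost the same in both genotypes. The sum was 1562, 1513 and 1535 RPKM in WT replicates 10, 11 and 12 and 1564, 1569 and 1531 RPKM in Ucp1-KO replicates 13, 14 and 15. The Ucp1-KO mean of 1554 ± 20.7 RPKM was 101% of the WT mean of 1537 ± 24.1 RPKM (SD, n = 3 each), and the genotypes overlapped. A small number of carriers made up most of this pool. The first 4 in the order of abundance accounted for 53.4% of it and the first 10 for 80.4%. By role, the carriers of phosphate, di- and tricarboxylates held 38.3% (35.3% without Slc25a34 and Slc25a35, which were listed with them but have no established substrate), those of nucleotides and cofactors 34.0% and those of carnitine and amino acids 17.4%. The iron carriers held 1.15%.

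There were 5 carriers of at least 100 RPKM, 16 between 10 and 100 RPKM, 9 between 1 and 10 RPKM and 11 below 1 RPKM as the mean of the 6 cultures.

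**Figure D1:**
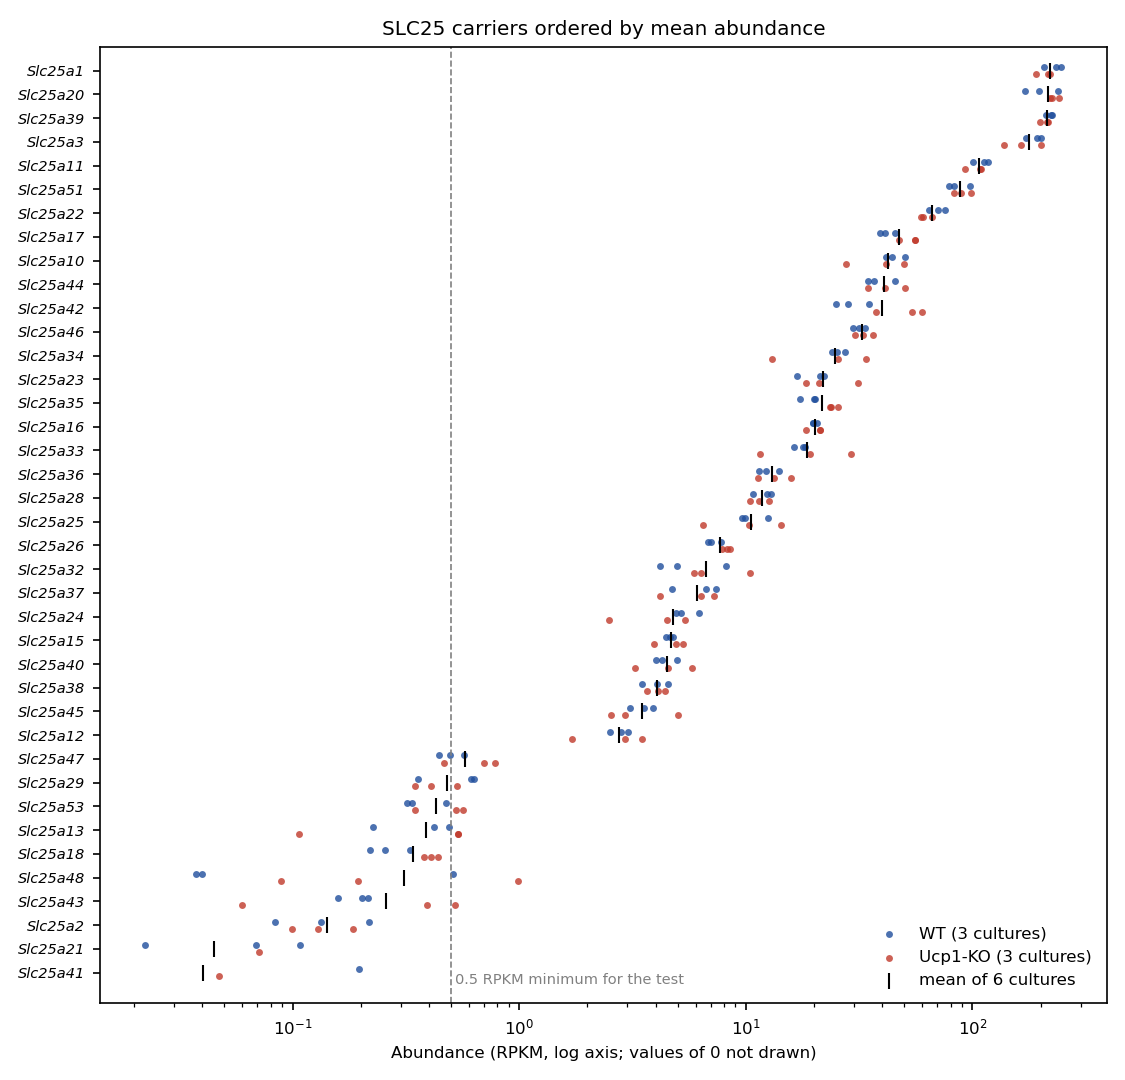
Abundance of 39 SLC25 carriers in RPKM on a log axis, with 1 point per culture (WT blue, Ucp1-KO red) and a black mark at the mean of the 6 cultures. Slc25a54, at 0 in all cultures, is not drawn, a gap separates Slc25a12 (2.74 RPKM) from Slc25a47 (0.576 RPKM), and points of both genotypes are intermingled for most carriers.

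The order began with Slc25a1, the citrate carrier, with 207, 246 and 235 RPKM in the WT and 219, 216 and 191 RPKM in the Ucp1-KO cultures. Slc25a20, the carnitine-acylcarnitine carrier that admits fatty acids for oxidation, had 238, 171 and 196 RPKM in the WT and 241, 219 and 225 RPKM in the Ucp1-KO cultures. Slc25a39, which serves glutathione import, had 211, 222 and 224 RPKM in the WT and 199, 215 and 213 RPKM in the Ucp1-KO cultures. These first 3 could not be ordered, because the gaps between neighbours of 4.14 and 0.908 RPKM were below the spread of the cultures. They stood at places 209, 217 and 223 of all 22466 genes by mean abundance. Slc25a3, the phosphate carrier, followed with 201, 192 and 172 RPKM in the WT and 201, 164 and 138 RPKM in the Ucp1-KO cultures. The fifth was Slc25a11, the oxoglutarate-malate carrier, with 100, 112 and 117 RPKM in the WT and 92.6, 108 and 109 RPKM in the Ucp1-KO cultures. All cultures of Slc25a3 lay above all cultures of Slc25a11.

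Slc25a51, the carrier that imports NAD, had 97.9, 78.7 and 83.1 RPKM in the WT and 98.4, 83.1 and 89.3 RPKM in the Ucp1-KO cultures, again without overlap with the next in order. Slc25a22, a glutamate carrier, followed at a mean of 66.1 RPKM. It had 64.4, 70.6 and 75.6 RPKM in the WT and 60.4, 66.2 and 59.5 RPKM in the Ucp1-KO cultures. Places 9 to 12 were held by Slc25a17, Slc25a10, Slc25a44 and Slc25a42, whose means between 39.99 and 47.3 RPKM were not separated by the spread of the cultures. Slc25a44, the branched-chain amino acid carrier, had 45.7, 34.7 and 36.7 RPKM in the WT and 50.5, 41.2 and 34.6 RPKM in the Ucp1-KO cultures. Its most abundant row was a non-coding RefSeq transcript, and its 4 rows differed by at most 1.01-fold. Of the 30 pairs of neighbours among the carriers above the minimum of 0.5 RPKM, the gap exceeded the larger SD of both for 8, and 6 pairs kept their order in 6 of 6 cultures.

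Genotypes were compared with limma on log2(RPKM + 1) over all 16865 RefSeq transcripts that reached 0.5 RPKM on average, and p-values were adjusted over all of them by the Benjamini-Hochberg method. Of the carriers, 31 passed this minimum. The other 10 stayed below 1 RPKM in every culture and were not tested. No carrier passed an adjusted p of 0.05 (0 of 31, against 0 of all transcripts or 0.0%), with a lowest value of 0.868 in limma. The ablated gene itself did not pass in this comparison (Ucp1, log2 fold change -1.78, limma unadjusted p = 0.000157, adjusted p = 0.868), so that the lack of a call does not show that a carrier was unaffected. Before adjustment, 3 carriers had p under 0.05 (9.68%, against 5.54% of all transcripts), and these were higher in Ucp1-KO cells (against 2.3% of all transcripts). Log2 fold changes of Ucp1-KO minus WT cells lay between -0.37 for Slc25a24 and 0.74 for Slc25a42, 18 above and 13 below 0 (58.1% above 0, against 49.6% of all transcripts). Their median was 0.012, against -0.0016 over all transcripts, and the median size without sign was 0.10, against 0.11. The 95% interval lay within a 2-fold change for 30 of 31 carriers (96.8%, against 92.1% of all transcripts) and within a 1.5-fold change for 22 (71.0%, against 71.1%). The exception at 2-fold was Slc25a42.

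**Figure D2:**
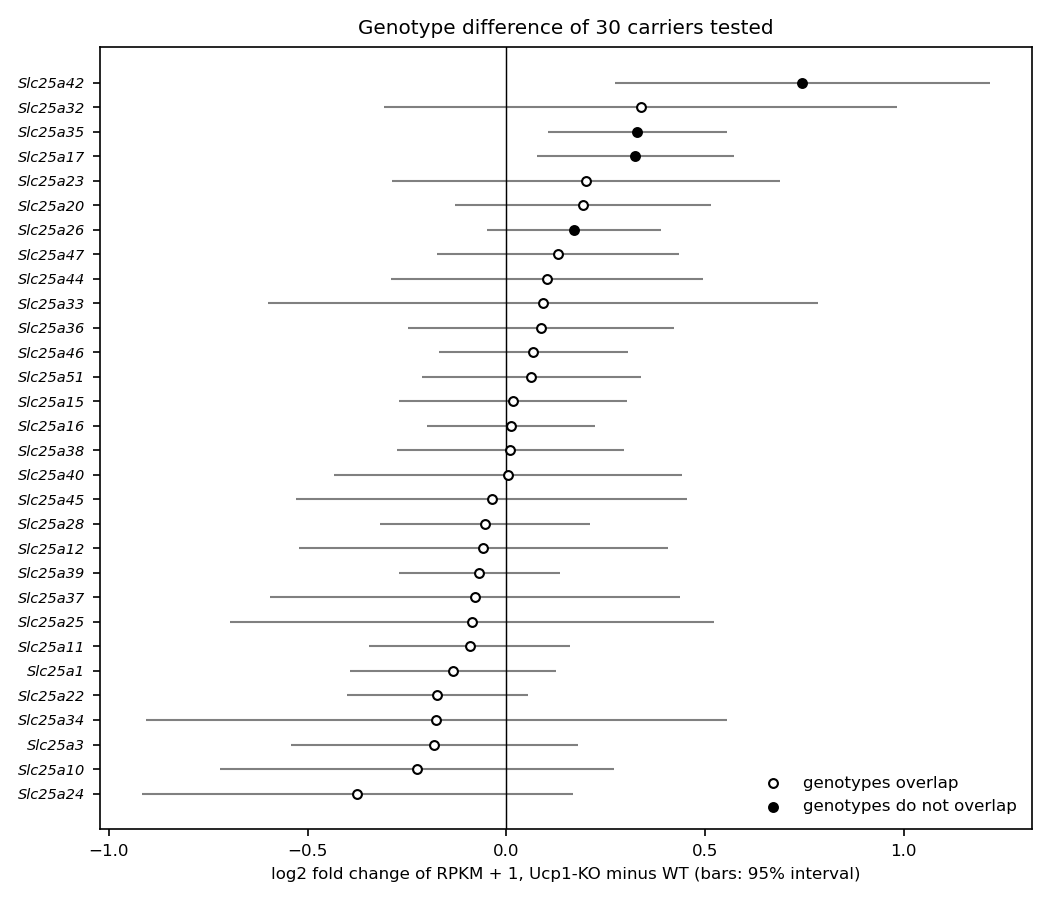
Log2 fold change of RPKM + 1, Ucp1-KO minus WT, of 30 of the carriers tested, with bars for the 95% interval of the limma estimate and filled points where the genotypes do not overlap. The interval of 3 carriers (Slc25a42, Slc25a35 and Slc25a17) lies above 0 before adjustment, and 4 points are filled, all to the right of 0.

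The genotypes were fully separated for 4 of the 31 carriers tested (12.9%, against 11.2% of all transcripts). All 4 were higher in Ucp1-KO cells (against 6.04% of all transcripts). With median-of-ratios scaling of the cultures there were 3 (against 11.8% of all transcripts in that setting), and these were Slc25a42, Slc25a35 and, lower in Ucp1-KO cells, Slc25a22. A permutation test of 3 against 3 cultures cannot give a p below 0.10.

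Slc25a42 imports coenzyme A into the matrix in exchange for adenine nucleotides, and is encoded on chromosome 8 of GRCm38 from 70184340 to 70212281. Its abundance was 35.0, 25.1 and 28.3 RPKM in WT replicates 10, 11 and 12, and 37.6, 54.1 and 59.9 RPKM in Ucp1-KO replicates 13, 14 and 15. These values rested on at least 1327 reads in every culture. Ucp1-KO replicate 13 lay close above WT replicate 10, while the others were well apart. The Ucp1-KO mean of 50.5 ± 11.6 RPKM was 171% of the WT mean of 29.5 ± 5.05 RPKM (SD, n = 3 each), with a log2 fold change of 0.74 (standard error 0.20, 95% interval 0.27 to 1.22, limma unadjusted p = 0.00746, adjusted p = 0.868). An exact two-sided permutation test gave p = 0.1. With single cultures left out the log2 fold change lay between 0.61 and 0.94. The sum of stromal markers was 475, 861 and 535 RPKM in WT replicates 10, 11 and 12 and 646, 569 and 371 RPKM in Ucp1-KO replicates 13, 14 and 15. The lowest Slc25a42 value thus came from the culture with the highest sum and the highest value from that with the lowest, whereas Ucp1-KO replicates 13 and 14 exceeded WT replicates 10 and 12 in both. The part of these cells in the difference was not tested.

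Slc25a17, the peroxisomal carrier of coenzyme A, FAD and NAD on chromosome 15 (81318921 to 81360765), had 45.3, 41.1 and 39.3 RPKM in the WT and 55.6, 55.5 and 47.2 RPKM in the Ucp1-KO cultures. The gap between WT replicate 10 and Ucp1-KO replicate 15 was small. The mean was 41.9 ± 3.11 against 52.8 ± 4.86 RPKM (SD, n = 3 each), a log2 fold change of 0.32 (standard error 0.10, limma unadjusted p = 0.0174, adjusted p = 0.868). With median-of-ratios scaling the genotypes overlapped, and the unadjusted p rose to at most 0.0706 when WT replicate 11, WT replicate 12 or Ucp1-KO replicate 14 was left out. Slc25a35, a carrier without an established substrate on chromosome 11 (68968096 to 68972516), had 20.2, 17.3 and 20.01 RPKM in the WT and 23.8, 25.6 and 23.6 RPKM in the Ucp1-KO cultures. The mean was 19.2 ± 1.61 against 24.3 ± 1.11 RPKM (SD, n = 3 each), a log2 fold change of 0.33 (standard error 0.09, limma unadjusted p = 0.0107, adjusted p = 0.868). Exons of Slc25a35 share 1151 bases with Rangrf on the opposite strand, and reads of both genes cannot be told apart without strand. Rangrf was listed at 0.292 to 0.639 RPKM. Slc25a26, the carrier of S-adenosylmethionine, had 7.74, 6.83 and 6.99 RPKM in the WT and 8.25, 8.48 and 7.88 RPKM in the Ucp1-KO cultures (log2 fold change 0.17, limma unadjusted p = 0.109, adjusted p = 0.871), and overlapped with median-of-ratios scaling. Its exons share 144 bases with Lrig1 on the opposite strand, which was at 5.98 RPKM on average.

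**Figure D3:**
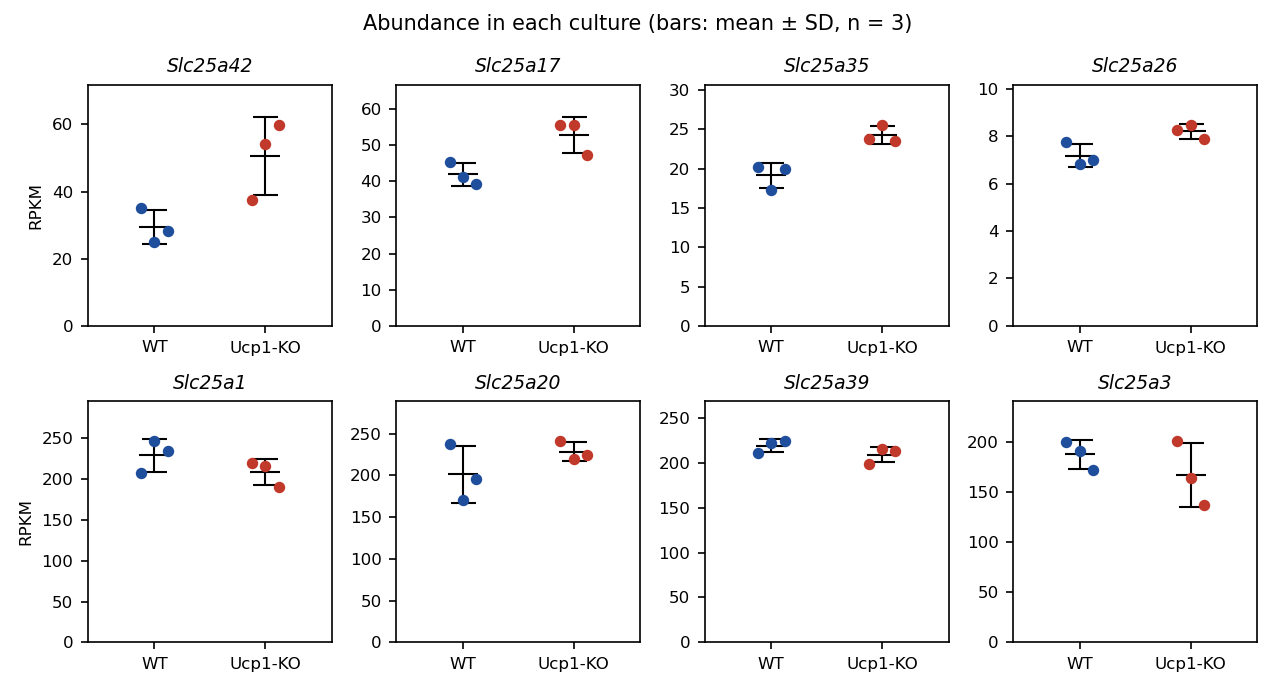
Abundance in RPKM of 8 carriers in each culture (WT blue, Ucp1-KO red, bars for mean ± SD, n = 3, axes from 0). In the upper row, with the 4 carriers whose genotypes do not overlap, the means differ most for Slc25a42 (29.5 and 50.5 RPKM), and in the lower row, with the 4 most abundant carriers, the genotypes overlap.

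The promoters of Slc25a42 and Slc25a17, which encode both coenzyme A carriers with an unadjusted p under 0.05, are shown beside those of the 2 most abundant carriers. Each is the 250 bases before the RefSeq start site on GRCm38.p6, read in the direction of the gene, with matches to CCAAT and GGGCGG on either strand in capitals.
Slc25a42, chr8:70212282-70212531, reverse strand: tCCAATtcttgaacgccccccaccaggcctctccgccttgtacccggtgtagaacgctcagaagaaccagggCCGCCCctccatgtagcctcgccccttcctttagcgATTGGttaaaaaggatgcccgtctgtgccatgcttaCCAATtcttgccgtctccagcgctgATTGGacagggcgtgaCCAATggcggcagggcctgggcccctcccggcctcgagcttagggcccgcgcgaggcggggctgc
Slc25a17, chr15:81360766-81361015, reverse strand: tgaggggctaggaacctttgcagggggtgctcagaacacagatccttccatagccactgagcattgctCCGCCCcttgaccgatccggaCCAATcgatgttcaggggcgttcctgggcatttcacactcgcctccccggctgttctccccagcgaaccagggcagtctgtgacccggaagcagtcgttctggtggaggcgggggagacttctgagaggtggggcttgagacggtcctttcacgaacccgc
Slc25a1, chr16:17928220-17928469, reverse strand: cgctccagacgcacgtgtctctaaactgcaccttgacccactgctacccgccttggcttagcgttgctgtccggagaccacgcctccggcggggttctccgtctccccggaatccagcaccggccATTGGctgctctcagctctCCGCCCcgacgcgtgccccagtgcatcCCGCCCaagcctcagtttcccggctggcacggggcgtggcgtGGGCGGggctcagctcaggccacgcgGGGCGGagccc
Slc25a20, chr9:108661886-108662135, forward strand: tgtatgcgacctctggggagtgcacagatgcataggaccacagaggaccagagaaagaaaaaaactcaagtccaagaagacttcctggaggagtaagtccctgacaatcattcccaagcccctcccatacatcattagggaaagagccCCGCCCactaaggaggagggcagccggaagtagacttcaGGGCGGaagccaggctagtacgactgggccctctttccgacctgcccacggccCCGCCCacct
The Slc25a42 promoter held 5 matches to CCAAT, a number reached by 0.213% of the 32851 RefSeq promoters and by 1 of the 39 promoters of carriers. The promoters of Slc25a17 and Slc25a1 held 1 each and that of Slc25a20 held 0. A RefSeq promoter was listed for 31 of the 41 carriers. GGGCGG, a motif of promoters rich in G and C, was found in 69.2% of the 39, against 32.7% of all promoters, CCAAT in 48.7% against 33.8%, CACGTG in 12.8% against 6.02% and TATAAA in 5.13% against 12.4%. Of 5 further motifs searched on both strands, AAGGTCA was found in 1 of the 39 (4.08% of all promoters) and CCGGAAGT in 1 (2.88%), and TCAAGGTCA, which contains the former, the direct repeat bound by PPAR-RXR and the palindrome bound by NRF1 in 0 (0.387%, 0.0335% and 0.782%). These counts describe letters, and no binding was measured.

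Among the carriers of phosphate, di- and tricarboxylates, 6 of 7 were tested, with 1 above and 5 below 0 and a median log2 fold change of -0.16. The one above 0 was Slc25a35, and without it and Slc25a34, both of unknown substrate, 0 were above and 4 below 0. Slc25a1, the citrate carrier, had a log2 fold change of -0.13 (95% interval -0.39 to 0.12) and Slc25a3, the phosphate carrier, of -0.18 (-0.54 to 0.18), both with overlapping genotypes. Slc25a10, the dicarboxylate carrier, had 41.7, 50.6 and 43.9 RPKM in the WT and 49.8, 41.4 and 27.8 RPKM in the Ucp1-KO cultures. Ucp1-KO replicate 15 was the lowest of the 6. The citrate, oxoglutarate and dicarboxylate carriers were summed to compare their shares. Slc25a1 took between 58.3% and 60.6% of the sum, Slc25a11 between 25.6% and 33.2% and Slc25a10 between 8.49% and 13.8%. Slc25a21, the oxodicarboxylate carrier, was detected with 1, 3 and 5 reads in the WT cultures, 3 reads in Ucp1-KO replicate 13 and 0 reads in the other two. The sum of this group was 618 ± 26.1 RPKM for WT against 567 ± 40.5 RPKM for Ucp1-KO cells (SD, n = 3 each), with overlap.

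Of the 4 carriers of aspartate and glutamate 2 were tested, both below 0. Slc25a22 had a log2 fold change of -0.17 (95% interval -0.40 to 0.05, limma unadjusted p = 0.114, adjusted p = 0.871). Slc25a12, the calcium-regulated aspartate-glutamate carrier of the malate-aspartate shuttle, had 2.80, 3.03 and 2.51 RPKM in the WT and 3.47, 2.94 and 1.71 RPKM in the Ucp1-KO cultures. Its counterpart Slc25a13 had 0.225, 0.423 and 0.488 RPKM in the WT and 0.536, 0.539 and 0.107 RPKM in the Ucp1-KO cultures. Slc25a12 thus made up between 83.7% and 94.1% of the pair. Slc25a18, the second glutamate carrier, was close to the floor, with 6, 5 and 8 reads in the WT cultures and 9 reads in each Ucp1-KO culture. Its exons share 32 bases with Atp6v1e1 on the opposite strand, which was at 132 RPKM on average, so that these few reads cannot be assigned to it with certainty.

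Of the 9 carriers of carnitine and amino acids 6 were tested, 5 of them above and 1 below 0, with a median log2 fold change of 0.06. For Slc25a20 it was 0.19 (95% interval -0.13 to 0.51, limma adjusted p = 0.877). Slc25a20 exceeded its relative Slc25a29, a carrier of basic amino acids, between 279.6-fold and 695-fold in the 6 cultures. Slc25a29 had 0.358, 0.610 and 0.632 RPKM in the WT and 0.347, 0.532 and 0.408 RPKM in the Ucp1-KO cultures. Slc25a15, the ornithine carrier, had 4.65, 4.79 and 4.42 RPKM in the WT and 3.92, 5.29 and 4.92 RPKM in the Ucp1-KO cultures, while Slc25a2, the other ornithine carrier, was found with at most 5 reads. Slc25a38, a glycine carrier needed for heme synthesis, and Slc25a45 had means of 4.04 and 3.50 RPKM and log2 fold changes of 0.0097 and -0.037. Slc25a47, which is known from liver, had 0.576 RPKM on average and a log2 fold change of 0.13. Slc25a48 was highest in 2 cultures, with 0.508 RPKM in WT replicate 10 and 0.992 RPKM in Ucp1-KO replicate 13, and at most 0.194 RPKM in the other 4.

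Carriers of ATP-Mg and phosphate, which adjust the adenine nucleotide content of the matrix in response to calcium, were present as 3 genes in unequal amounts. Slc25a23 had 21.3, 16.8 and 22.0 RPKM in the WT and 18.4, 21.0 and 31.3 RPKM in the Ucp1-KO cultures. Slc25a25 had 12.5, 9.59 and 9.90 RPKM in the WT and 14.3, 10.3 and 6.498 RPKM in the Ucp1-KO cultures. Slc25a24 had 4.94, 6.23 and 5.19 RPKM in the WT and 5.36, 4.49 and 2.48 RPKM in the Ucp1-KO cultures. In Ucp1-KO replicate 15 Slc25a23 was the highest and the other two were the lowest of all cultures, so that the share of Slc25a23 in the group was 77.7% there, against 48.3% to 59.4% in the other 5 cultures. Slc25a41 was found with 4 reads in WT replicate 11, 1 read in Ucp1-KO replicate 14 and 0 reads elsewhere. Slc25a54 was listed at 0 in all cultures.

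All 11 carriers of nucleotides and cofactors were tested, with 10 above and 1 below 0 and a median log2 fold change of 0.09. They include Slc25a42, Slc25a17 and Slc25a26, described above. With a constant of 0.1 RPKM, or in limma-voom on recovered reads, 9 were above 0, and without Ucp1-KO replicate 15 only 6. The direction of 5 of the 11 turned when a culture was left out (Slc25a16, Slc25a33, Slc25a36, Slc25a40 and Slc25a51). Slc25a16, a relative of Slc25a42 that is also linked to coenzyme A, had 19.8, 20.5 and 19.9 RPKM in the WT and 18.5, 21.2 and 21.2 RPKM in the Ucp1-KO cultures, a log2 fold change of 0.012 (95% interval -0.20 to 0.22). The share of Slc25a42 in the sum of both was 63.8%, 54.98% and 58.8% in the WT and 67.0%, 71.9% and 73.9% in the Ucp1-KO cultures, which followed the abundance of Slc25a42 while Slc25a16 was nearly level. Slc25a32, which carries folate and FAD, had 8.20, 4.19 and 4.96 RPKM in the WT and 10.4, 5.89 and 6.32 RPKM in the Ucp1-KO cultures. The highest culture of each genotype stood apart from the other two, and the log2 fold change of 0.34 had an interval from -0.31 to 0.98. Slc25a39 exceeded its relative Slc25a40 between 36.8-fold and 61.6-fold. Slc25a40 had 4.02, 4.25 and 4.99 RPKM in the WT and 3.23, 4.55 and 5.78 RPKM in the Ucp1-KO cultures. Slc25a33 and Slc25a36, carriers of pyrimidine nucleotides, had means of 18.7 and 13.03 RPKM with Slc25a33 higher in 6 of 6 cultures, and Slc25a33 had 16.3, 18.3 and 17.9 RPKM in the WT and 11.5, 19.3 and 29.0 RPKM in the Ucp1-KO cultures. Slc25a36 had 11.4, 12.3 and 14.04 RPKM in the WT and 11.3, 13.3 and 15.8 RPKM in the Ucp1-KO cultures.

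The iron carriers mitoferrin 1 and 2 are encoded by Slc25a37 and Slc25a28. Slc25a28 had 10.7, 12.9 and 12.4 RPKM in the WT and 10.4, 11.5 and 12.6 RPKM in the Ucp1-KO cultures. Slc25a37, the form of red blood cell precursors, had 4.70, 6.67 and 7.37 RPKM in the WT and 4.17, 6.31 and 7.21 RPKM in the Ucp1-KO cultures. Slc25a28 made up between 62.7% and 71.5% of the pair in all cultures, and the genotypes overlapped for both. The red blood cell markers Alas2 and Hba-a1 summed to at most 0.344 RPKM. Of the carriers without an assigned role in metabolite transport, Slc25a46, which shapes mitochondria at the outer membrane, had 32.4 RPKM on average and a log2 fold change of 0.07, and Slc25a43 and Slc25a53 remained below 0.5 RPKM on average.

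**Figure D4:**
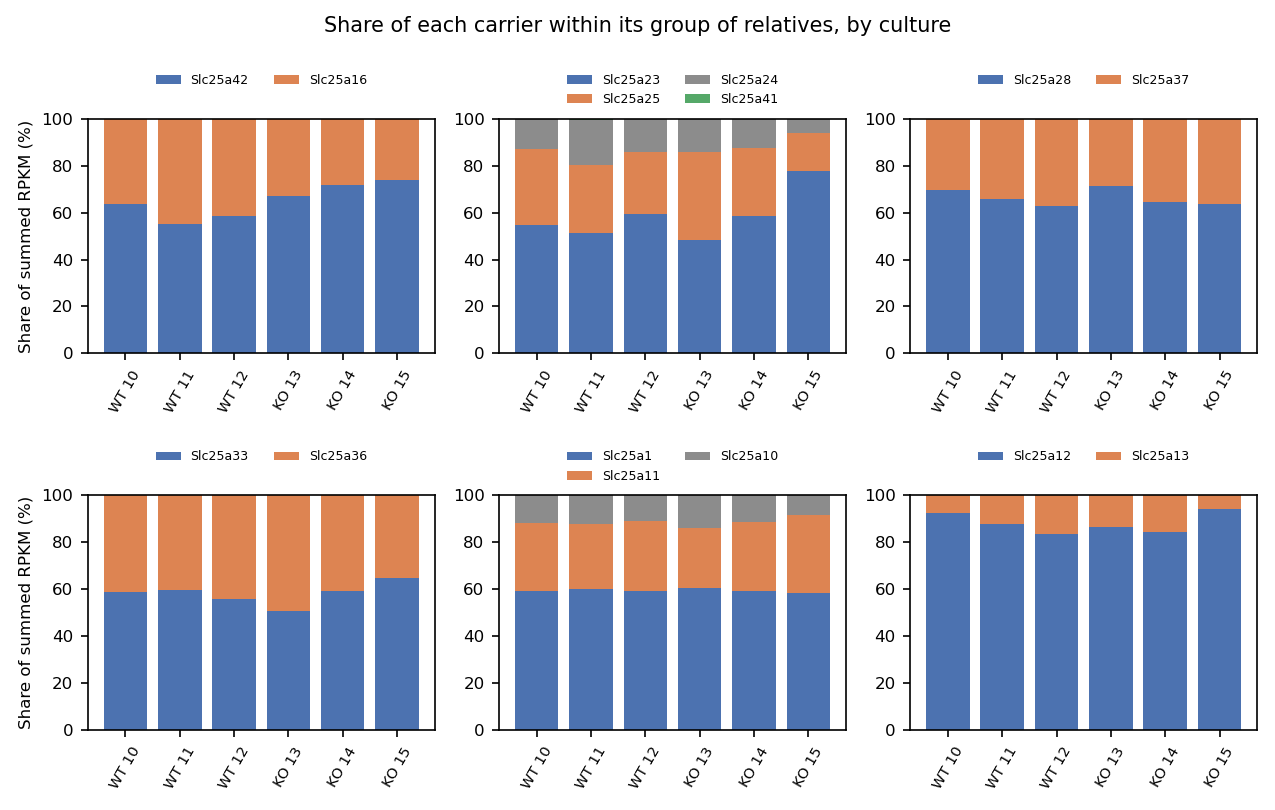
Share in percent of each carrier in the summed RPKM of its group of relatives, as stacked bars from 0 to 100 for each of the 6 cultures. Slc25a42 takes 54.98% to 63.8% in WT and 67.0% to 73.9% in Ucp1-KO cultures, Slc25a23 takes 77.7% in Ucp1-KO replicate 15, and Slc25a1 takes 58.3% to 60.6% in all cultures.

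The spread between cultures was compared on the log2 scale. The SD of the Ucp1-KO cultures exceeded that of the WT cultures for 22 of the 31 carriers tested (71.0%, against 60.1% of all transcripts). The range between the Ucp1-KO cultures exceeded the difference of the genotype means for 25 of the 31. This was 80.6%, not above the share of all transcripts of 85.9%. Replicates 13 and 15 of the Ucp1-KO cells were the highest and the lowest of all 6 cultures, in either order, for 10 carriers (32.3%, against 16.2% of all transcripts). Slc25a34, a carrier without an established substrate, had the widest range, with 24.1, 27.3 and 25.3 RPKM in the WT and 13.04, 25.4 and 33.8 RPKM in the Ucp1-KO cultures. The 3 WT values were close together, and both the lowest and the highest value came from Ucp1-KO cells. The brown adipocyte markers did not share 1 order over these cultures. Cidea, which encodes a lipid droplet protein, had 669, 615 and 791 RPKM in the WT and 635, 917 and 1371 RPKM in the Ucp1-KO cultures. Adipoq, which encodes the hormone adiponectin, had 1480, 1241 and 1135 RPKM in the WT and 1714, 1410 and 1398 RPKM in the Ucp1-KO cultures. Plin1, which encodes perilipin, had 451, 390 and 407 RPKM in the WT and 456, 416 and 427 RPKM in the Ucp1-KO cultures. Acly, which cleaves the citrate exported by the product of Slc25a1, had 430, 188 and 206 RPKM in the WT and 497, 232 and 101 RPKM in the Ucp1-KO cultures. The part of the state of the cultures in these values was not tested.

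Genes that act together with the carriers were compared in the same way, in lists chosen with earlier results of these data known. The machinery that inserts carriers into the inner membrane was found with 9 of 10 genes, all tested. All 9 log2 fold changes were above 0 (against 49.6% of all transcripts), with a median of 0.16 and a range from 0.08 to 0.35. In limma 2 had an unadjusted p under 0.05 (against 2.3% of all transcripts, in this direction) and 0 an adjusted p under 0.05. The number was 1 without WT replicate 11, WT replicate 12 or Ucp1-KO replicate 14 (against 1.88%, 2.61% and 3.57% of all transcripts in these settings, in both directions), 3 without Ucp1-KO replicate 13 (9.14%) and 4 without a minimum abundance (5.04%). Full separation, with higher values in Ucp1-KO cells, was found for 5 of the 9 (against 6.04% of all transcripts), which were Timm8b, Timm9, Timm10b, Tomm70a and Agk. It was found for 2 of the 9 with median-of-ratios scaling (against 5.73% of all transcripts in that setting) and for 8 of the 9 without WT replicate 10 (against 12.7%). Timm9, a small chaperone of the intermembrane space, had 46.0, 38.9 and 40.6 RPKM in the WT and 54.7, 52.9 and 52.6 RPKM in the Ucp1-KO cultures (log2 fold change 0.35, limma adjusted p = 0.868). Of 15 other transporters of the inner membrane, 9 were above and 6 below 0 with a median of 0.07, and 0 had an unadjusted p under 0.05 in limma (against 5.54% of all transcripts). Full separation was found for 1 of the 15 (against 11.2% of all transcripts). Without WT replicate 10 there were 4 with an unadjusted p under 0.05 (against 10.4% of all transcripts in that setting) and 7 with full separation (against 32.8%). Mpc2, a subunit of the pyruvate carrier, was the most abundant of them, with 402, 313 and 319 RPKM in the WT and 464, 401 and 409 RPKM in the Ucp1-KO cultures. Of 17 enzymes that share substrates with the carriers, 8 were above and 9 below 0 with a median of -0.03. The 3 with an unadjusted p under 0.05, Oat, Alas1 and Got2, were lower in Ucp1-KO cells (against 3.24% of all transcripts), and 0 passed after adjustment. With single cultures left out the number lay between 0 of 17 without WT replicate 11 (against 1.88% of all transcripts in that setting) and 4 of 17 without WT replicate 10 (against 10.4%). It was 1 without WT replicate 12 (2.61%) or Ucp1-KO replicate 14 (3.57%), and 4 with median-of-ratios scaling (5.93%). Among them Alas1, the first enzyme of heme synthesis, had 158, 185 and 171 RPKM in the WT and 134, 153 and 127 RPKM in the Ucp1-KO cultures, and Oat, ornithine aminotransferase, had 94.5, 110 and 96.9 RPKM in the WT and 78.8, 79.0 and 87.1 RPKM in the Ucp1-KO cultures.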

How the data were processed

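RNA of 3 WT and 3 Ucp1-KO cultures of primary brown adipocytes was sequenced. The values deposited by the authors are RPKM, from reads aligned to mouse build 38 and, where unique, counted on annotated transcripts with Genomatix tools. Groups and replicate numbers came from the sample titles, and all 6 value columns were matched by name. RefSeq rows (28890 of 168326) were used. Members and gene lists were chosen with earlier results of these data known. All carriers are named except 1, which is not reported here but counts in the sums and totals. Values in every culture are given for the others of the 10 most abundant, for those with an unadjusted p under 0.05 or without overlap of the genotypes, and for groups of relatives. Slc25a32, Slc25a34, Slc25a44, Slc25a48 and the single genes of the other lists were picked for values in every culture after these were seen, as were the 9 motifs, the promoters shown, the count of CCAAT matches and the comparison of Ucp1-KO replicates 13 and 15.

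Genotypes were tested over the 16865 transcripts averaging 0.5 RPKM or more, using limma 3.58.1 and R 4.3.3 (empirical Bayes with an intensity trend, no covariates) on log2(RPKM + 1), so that the fold change of rare transcripts is understated. P-values measure the spread between these cultures. The test was checked on simulated data.

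Since RPKM gives no read numbers, totals were computed from low values of Ensembl transcripts of known length (GENCODE M21), 93.3% to 93.5% of which came out whole, and gave whole reads within 0.01 for 16864 of the 16865 transcripts. A floor of 3 reads on a transcript of 2000 bases was 0.0846 to 0.100 RPKM, which covers counting error only. All but 4 of the carriers tested had at least 100 reads in every culture. Coordinates are from RefSeq on GRCm38.p6. The authors named mouse build 38 without a patch release. Promoters are from RefSeq. Tables and figures were made in Python 3.11.15 (pandas 2.3.3, numpy 2.4.6, matplotlib 3.10.9), and permutation tests in scipy 1.17.1. Alternatives were another constant, no minimum, 1 transcript per gene, all annotations, median-of-ratios scaling, limma-voom on recovered reads and leaving out each culture.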

Additional observations from a re-analysis of the deposited data

How the results depend on the processing

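No carrier passed an adjusted p of 0.05 under any alternative run. Without a minimum abundance, 22 of 28890 transcripts passed it, and 1456 had an unadjusted p under 0.05 in limma (5.04%). So did 5 of 41 carriers (Slc25a26 and Slc25a18 in addition). Slc25a18 rested on 5 to 9 reads per culture. With all annotations 5193 of 95358 transcripts had an unadjusted p under 0.05 (5.45%, against 5.54% of RefSeq transcripts). The cause of the 22 was not tested. Leaving out single cultures gave 317 to 1754 transcripts (1.88% to 10.4%) and 2 to 6 of 31 carriers at an unadjusted p under 0.05 in limma. It gave 4 to 11 carriers without overlap (against 14.4% to 32.8% of all transcripts) and a median log2 fold change of -0.013 to 0.073. The 11 came without WT replicate 10 or Ucp1-KO replicate 13, where 32.8% and 27.8% of all transcripts did not overlap. Summing all transcripts of a gene gave 1967 RPKM for WT and 2026 RPKM for Ucp1-KO cells (103%). Of 372 log2 fold changes of single carriers under alternatives, 30 had the opposite sign, 28 of them with a culture left out. The others were those of Slc25a40 with a constant of 0.1 RPKM (-0.0010) and in limma-voom (-0.0095). With single cultures left out the ranges were, for the 16 carriers concerned, Slc25a10 -0.40 to 0.0060, Slc25a12 -0.21 to 0.15, Slc25a15 -0.056 to 0.12, Slc25a16 -0.020 to 0.073, Slc25a23 -0.015 to 0.35, Slc25a25 -0.33 to 0.18, Slc25a28 -0.13 to 0.0081, Slc25a33 -0.21 to 0.42, Slc25a34 -0.46 to 0.19, Slc25a36 -0.027 to 0.20, Slc25a37 -0.24 to 0.12, Slc25a38 -0.069 to 0.083, Slc25a40 -0.16 to 0.18, Slc25a44 -0.034 to 0.23, Slc25a45 -0.26 to 0.11 and Slc25a51 -0.0020 to 0.15. The other 15 kept their sign, with ranges among them of -0.56 to -0.12 for Slc25a24, -0.32 to -0.048 for Slc25a3, -0.21 to -0.071 for Slc25a1, -0.16 to -0.018 for Slc25a11, -0.094 to -0.033 for Slc25a39, 0.00061 to 0.13 for Slc25a46, 0.070 to 0.21 for Slc25a47, 0.080 to 0.32 for Slc25a20 and 0.11 to 0.58 for Slc25a32. Slc25a3 and Slc25a24 had an unadjusted p under 0.05 in limma without Ucp1-KO replicate 13, and Slc25a20 without WT replicate 10. In these settings 6 and 4 of the 31 carriers did, against 9.14% and 10.4% of all transcripts. No paired analysis was possible because the genotypes share no replicate number. The 10 carriers below the minimum abundance were tested only where it was dropped.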
